A study of Caenorhabditis elegans with 12 samples.

Results

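The response of wild-type Caenorhabditis elegans larvae to cadmium (Cd) was taken as the difference between 3 arrays of animals given 30 µM Cd and 3 arrays of animals without Cd. These 6 of the study's 12 arrays were chosen by their titles, and all 22548 probe sets other than the manufacturer's controls were compared. The animals belonged to the N2 (Bristol) strain, were kept at 20 °C on Escherichia coli OP50 and were harvested as whole L4 larvae, the last larval stage before the adult. Cd was present from hatching on, so the comparison describes larvae that had developed in the metal and not an acute exposure. The other 6 arrays held MT KO mtl-1,mtl-2(zs1) larvae of the same stage, a strain labelled as lacking both metallothionein genes, grown without Cd or with 30 µM Cd, and served to test whether the strains' responses differed. The labels number the arrays 1 to 3 in each group without saying whether they came from separate cultures, so the spread behind each p-value is that among these arrays and may be technical.

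Cadmium has no known role in animal cells and enters through carriers meant for zinc, iron and other divalent metals, where it displaces them from proteins and reacts with thiols. C. elegans counters it with metallothioneins and phytochelatins, small thiol-rich molecules that bind the metal, with transporters and with enzymes that conjugate or export reactive compounds. Much of this takes place in the intestine, which also stores fat and metals, makes yolk and faces the bacteria the animal eats.

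Values are log2 GCRMA values, on which a difference of 1 is a 2-fold change. In the limma fit of all 12 arrays, 2693 of 22548 probe sets changed with Cd at an adjusted p under 0.05 (11.9%), 1453 upwards (6.44%) and 1240 downwards (5.50%). Most changes were moderate: 1110 of the rises and 958 of the falls were under 2-fold, with median differences of 0.69 and −0.65. A change of at least 2-fold was called for 625 probe sets (2.77%), 343 higher (1.52%) and 282 lower (1.25%), and only 13 rises and 2 falls reached a log2 difference of 4. The median over all probe sets was 0.002. The probe sets that rose started from a median level of 5.96 and those that fell from 7.22. Both group means exceeded the median of all values, 4.026, for 1214 of the rises and 1061 of the falls. That median is not a measured limit of background. At an unadjusted p under 0.05 the count was 5267 (23.4%). The arrays of the groups did not overlap at 5626 of the 22548 probe sets, and at 99.6% of the called rises and 99.8% of the called falls, so a lack of overlap adds nothing to a call.

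**Figure D1:**
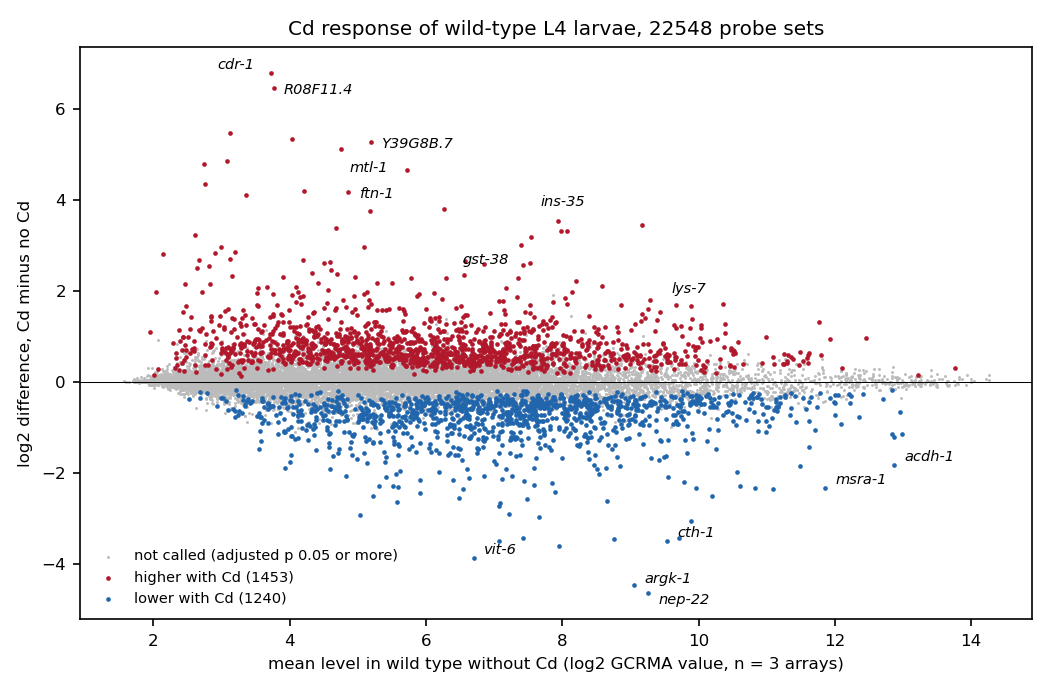
Each point is 1 of 22548 probe sets; the horizontal axis gives the mean log2 GCRMA value in wild type without Cd (n = 3 arrays) and the vertical axis the log2 difference, Cd minus no Cd. The 13 rises of at least 4 on the log2 scale lie to the left, at low starting levels, while acdh-1 and msra-1 fell from high ones.

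The arrays of wild type without Cd were less alike than those with Cd, with correlations of 0.9911 to 0.9966 against 0.9962 to 0.9969, and correlations of 0.9798 to 0.9866 between the groups. Replicate 1 without Cd stood apart: its control probe sets for GAPDH and actin had a 3′ minus 5′ signal of 2.81 (log2), which grows as RNA degrades, against 1.03 to 1.84 on the other 5 arrays. The group means of this signal were 1.98 ± 0.78 without Cd and 1.13 ± 0.10 with Cd (SD, n = 3, two-sided exact permutation p = 0.1, the smallest that 3 against 3 arrays allow). In MT KO the signal was 1.27 to 1.48 without Cd and 0.74 to 1.07 with Cd. In both strains every array without Cd thus lay above every array with Cd in this signal. Its part in the results was not tested beyond the fits without that array and with the signal as a covariate. Fewer changes were called with the covariate, and its counts stand beside those of the lists. Each measured tissue marker had a mean above the median of all values in at least 1 group, apart from the adult cuticle marker col-19, and col-7, the other one, had no probe set of its own. Whole animals were measured, so fewer cells of a type and less RNA per cell cannot be told apart.

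The 20 genes with the largest rises spanned folds from 7.03 to 110 (limma adjusted p from 3.65e-08 to 0.000473). For 11 of the 20 the mean without Cd lay below the median of all values, and folds for those depend on the array's background. The gene cdr-1 encodes a glutathione S-transferase-like protein of the lysosome and led the list. Its 3 arrays read 3.88, 3.95 and 3.37 without Cd and 10.7, 10.41 and 10.42 with Cd. The metallothionein gene mtl-1, whose product binds Cd, read 5.10, 4.47 and 4.69 without Cd and 9.69, 9.58 and 10.28 with it. For both genes the groups were far apart, with the lowest Cd array above 9 and the highest array without Cd below 6.

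The 10 largest rises also included R08F11.4, F56C3.9, Y39G8B.7, F15B9.6, T08G5.1 and F44E7.5. These carry only sequence names here and had differences from 4.64 to 6.46. Behind the 10 genes with the largest rises came 10 more, some of them with roles in metal transport, signalling and conjugation. The zinc transporter gene zipt-2.3 read 2.74, 3.17 and 4.18 without Cd and 7.63, 7.12 and 7.61 with Cd, a difference of 4.09 (SE 0.33, limma adjusted p = 6.30e-05, 3 arrays per group). The insulin-like peptide gene ins-35 read 8.13, 7.88 and 7.79 without Cd and 11.55, 11.33 and 11.52 with Cd. This was an 11.6-fold rise at levels well above the median of all values (difference 3.53, SE 0.12, limma adjusted p = 4.11e-07). In both, every array with Cd exceeded every array without it by several log2 units. The glutathione S-transferase gene gst-38, which encodes an enzyme that couples glutathione to reactive compounds, read 7.27, 7.35 and 7.56 without Cd and 10.42, 10.47 and 10.28 with Cd, a difference of 3.0 (SE 0.12). The C-type lectin gene clec-52 rose by 3.38 (SE 0.14), the P-glycoprotein gene pgp-8, of an efflux pump family, by 2.95 (SE 0.17), and bcmo-2, a relative of beta-carotene monooxygenases, by 2.85 (SE 0.33). The remaining 4 were F08G2.5, C08E8.4, dhs-26 of the short-chain dehydrogenase family, and nstp-8 of the nucleotide sugar transporter family, with differences of 3.22, 2.95, 2.82 and 2.81. Significance of dhs-26 was lost in a fit of the 6 wild-type arrays with the replicate number as a block (limma adjusted p = 0.0504).

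The 20 largest falls spanned folds from 5.35 to 25.1 (limma adjusted p from 3.65e-08 to 0.0026). They included genes of fat and yolk metabolism, and 7 of the 20 had a mean below the median of all values once Cd was present. The gene nep-22, of the neprilysin family of metallopeptidases, read 9.29, 9.31 and 9.16 without Cd and 4.64, 4.49 and 4.69 with Cd. The yolk protein gene vit-6 read 6.65, 6.54 and 6.92 without Cd and 2.78, 3.11 and 2.58 with it on one probe set and differed by −3.43 on its other. Of the falls past the first 10, cln-3.1, a homologue of the human lysosomal gene CLN3, fell by 2.65 (SE 0.24) and the UDP-glucuronosyltransferase gene ugt-17 by 2.64 (SE 0.11). The yolk protein gene vit-1 fell by 2.57 (SE 0.20), the stearoyl-CoA desaturase gene fat-7, which introduces a double bond into saturated fatty acids, by 2.56 (SE 0.17), and the ABC transporter gene pmp-5 by 2.52 (SE 0.11). The others were F22E5.1, ZK673.1, gtnt-18, T05E12.6 and the chemoreceptor-like gene srh-237, with differences from −2.74 to −2.42. The call of Y71G12B.18, the fall ranked 10, was lost when values under the median were set to it (limma adjusted p = 0.139), since its level with Cd was near 2.

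**Figure D2:**
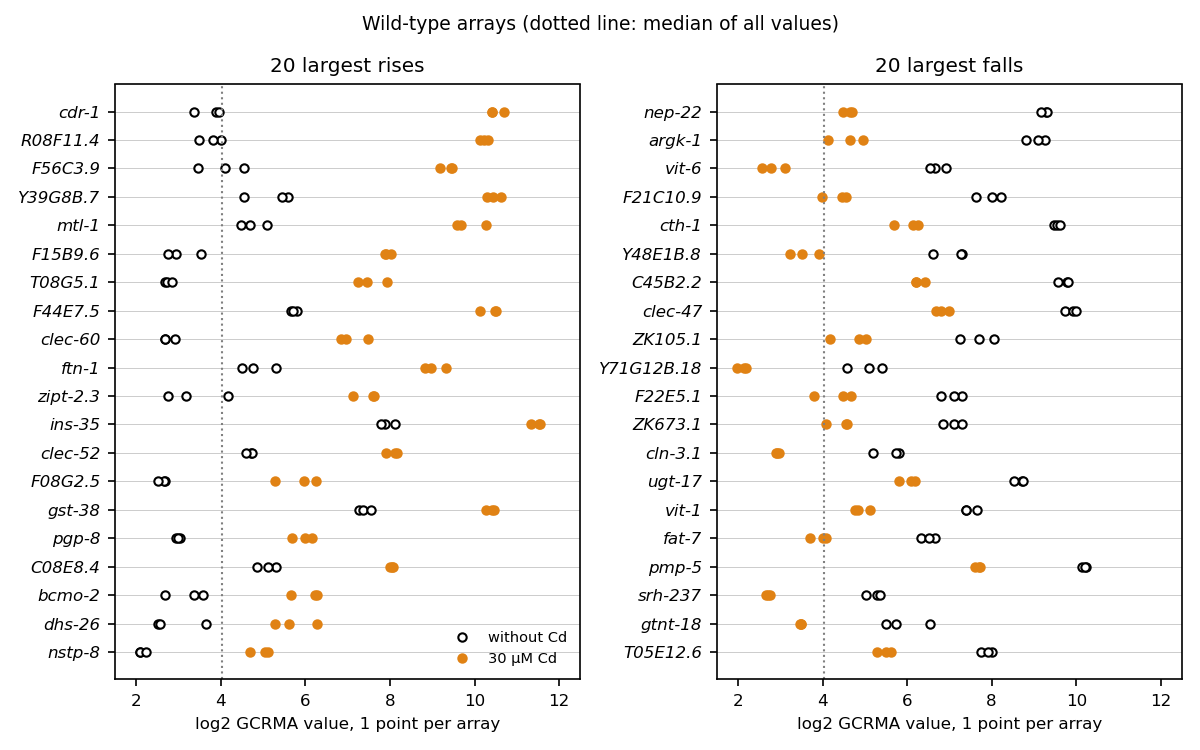
Log2 GCRMA values of the 20 genes with the largest rises (left) and the 20 with the largest falls (right), 1 point per wild-type array, open without Cd and filled with 30 µM Cd; the dotted line marks the median of all values. In all 40 genes the 3 points of one group lie wholly above those of the other, as the choice of these genes required.

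Gene lists were described with 1 probe set per gene, against 17118 genes of which 2177 changed (12.7%), 1113 higher (6.50%) and 1064 lower (6.22%), with a median difference of 0.001. Of 11 measured genes that bind or sense metals, 5 rose and 1 fell, with a list median of 0.19, and 3 rose with the 3′ minus 5′ covariate. Beside cdr-1 and mtl-1, the gene cdr-4, another member of the cdr family, read 7.27, 7.49 and 7.68 without Cd and 8.71, 8.59 and 8.73 with Cd (difference 1.2, SE 0.14, limma adjusted p = 0.00069), and cdr-2 rose by 0.67, a call lost with the covariate (limma adjusted p = 0.081). The phytochelatin synthase gene pcs-1 read 5.94, 5.94 and 6.16 without Cd and 6.41, 6.54 and 6.74 with Cd, a small rise (0.55, limma adjusted p = 0.025). It was lost without wild type without Cd replicate 1 (limma adjusted p = 0.0762) or 2 (0.0832), without wild type with Cd replicate 2 (0.0656) or 3 (0.0893), and with the 3′ minus 5′ covariate (0.265). The gene that fell, hmt-1, encodes an ABC transporter needed for tolerance of heavy metals and read 7.25, 7.32 and 7.41 without Cd and 6.93, 6.54 and 6.31 with Cd (limma adjusted p = 0.00526, or 0.0596 in the fit of the 6 wild-type arrays). The metallothionein gene mtl-2 was bright in both groups, at 11.68, 11.54 and 11.33 without Cd and 11.19, 11.28 and 11.54 with Cd on one probe set, and none of its 3 probe sets passed (limma adjusted p from 0.600 to 0.980). The high-zinc sensor gene hizr-1, a nuclear receptor gene, read 3.16 ± 0.25 without Cd and 3.35 ± 0.08 with Cd (SD, n = 3), below the median of all values in both groups (limma adjusted p = 0.703).

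Of 19 zinc transport genes, 4 rose and none fell, with a list median of 0.06. Beside zipt-2.3, the ZIP-family gene zipt-7.1 read 5.27, 5.21 and 5.0 without Cd and 7.11, 6.88 and 6.87 with it (difference 1.80, SE 0.12, limma adjusted p = 2.03e-05). The gene cdf-2, whose product loads zinc into the storage granules of the gut, rose by 1.02 (SE 0.16, limma adjusted p = 0.00292). The gene cdf-1, whose product removes zinc from cells, rose by 0.61 on the brighter of its probe sets and by 1.12 on the other (limma adjusted p = 0.004). The call of the brighter one was lost without wild type without Cd replicate 3 (limma adjusted p = 0.0591), without wild type with Cd replicate 1 (0.0766) or 3 (0.0815), and in the fit of the 6 wild-type arrays (0.106). The other 15 zinc genes did not pass.

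Of 18 genes of iron and heme handling, 8 fell and 1 rose, with a list median of −0.30 (5 fell when only probe sets above the median were tested). The gene that rose, ftn-1, encodes a ferritin, the protein shell that stores iron, and read 5.30, 4.50 and 4.77 without Cd and 8.82, 9.32 and 8.96 with Cd. Of 8 heme-responsive hrg genes 4 fell and none rose. The heme importer gene hrg-4 read 6.26, 6.85 and 6.71 without Cd and 4.41, 4.59 and 5.08 with Cd (difference −1.91, SE 0.20, limma adjusted p = 0.000271), and hrg-1, which encodes another heme transporter, 7.31, 7.43 and 7.45 without Cd and 6.14, 6.14 and 6.08 with Cd. The ferroportin-like gene fpn-1.1, of a family that exports iron from cells, fell by 1.49 (SE 0.16, limma adjusted p = 0.00028). All 3 encode transporters of iron or heme. The copper chaperone gene cuc-1, which hands copper to transport ATPases, fell by 1.02 (SE 0.12, limma adjusted p = 0.000604), 1 of 2 changes among 11 genes of copper and other metal pumps.

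**Figure D3:**
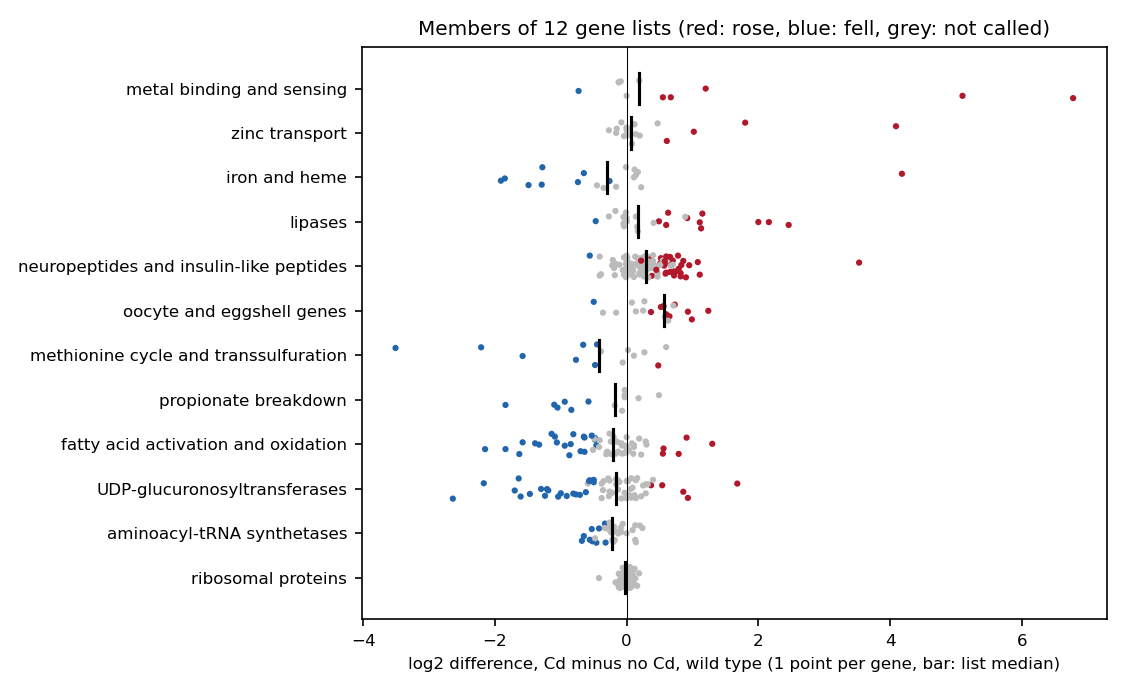
Each point is 1 gene of the named list, placed by its log2 difference, Cd minus no Cd in wild type; red points rose, blue points fell, grey points were not called, and the bar is the list median. Called zinc genes lie to the right and called iron and heme genes to the left, apart from ftn-1, while all ribosomal protein genes lie close to 0.

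Of 73 cytochrome P450 genes, whose products oxidise foreign compounds, 12 rose (16.4%) and 7 fell (9.59%), with a median of 0.01. The gene cyp-33C7 read 5.04, 4.95 and 4.99 without Cd and 6.63, 6.1 and 6.62 with Cd, and cyp-13A2 fell by 1.66 (SE 0.19). The 12 rises became 7 in the fit of the 6 wild-type arrays and with values floored at the median. The 7 falls became 4 without wild type without Cd replicate 2 or any 1 of the arrays with Cd, 3 with the floor and 2 with the covariate. Enzymes that conjugate glutathione changed in both directions, with 13 of 45 glutathione S-transferase genes higher and 8 lower. The majority turned with the covariate, to 6 higher and 7 lower, and the fit of the 6 wild-type arrays gave 8 and 7. Here gst-24 came next after gst-38 at 2.27 (SE 0.20, limma adjusted p = 0.000101) while gst-10 fell by 1.29 (SE 0.16, limma adjusted p = 0.00076). Of 64 UDP-glucuronosyltransferase genes, for enzymes that attach sugars, 21 fell (32.8%) and 5 rose (7.81%). Among them ugt-31 read 6.10, 6.57 and 6.52 without Cd and 4.16, 4.35 and 4.18 with Cd, ugt-26 fell by 1.70 and ugt-66 by 1.64. The rises numbered 2 with the covariate, with quantile normalization or with the floor, and 2 or 3 without each of 11 of the 12 arrays in turn, the exception being MT KO with Cd replicate 3. Of 56 ABC transporter genes, which export or import substrates with ATP, 13 fell and 5 rose (3 without wild type without Cd replicate 1, or with Cd replicate 1 or 2, and 2 with the covariate), led by pmp-5 and pgp-8 in the respective direction. No gene of the 32 for glutathione and thiol redox rose and 6 fell, most of all msra-1, which repairs oxidised methionine, from 11.83, 11.82 and 11.91 without Cd to 9.68, 9.21 and 9.64 with Cd. Members of these families are similar in sequence, and probe sets for close relatives may share signal.

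Of 26 lipase genes, whose products release fatty acids from stored or dietary fat, 10 rose (38.5%) and 1 fell (3.85%), with a list median of 0.16. The lysosomal acid lipase gene lipl-2 read 5.42, 5.52 and 5.55 without Cd and 7.68, 7.65 and 7.64 with Cd (difference 2.16, SE 0.25, limma adjusted p = 0.000486), and its relative lipl-4 4.91, 4.13 and 4.63 without Cd and 6.61, 6.49 and 6.58 with Cd. The lipase gene lips-6 rose by 2.46 (SE 0.21, limma adjusted p = 9.26e-05) and lips-15 by 1.11 (SE 0.08). Among 16 lips genes 7 rose, among 8 lipl genes 3. The other lipl gene called, lipl-1, rose by 1.13 (limma adjusted p = 0.031). Its call was lost in the fit of the 6 wild-type arrays (limma adjusted p = 0.124), with the floor (0.0564) and with the replicate block on all 12 arrays (0.0547). It was also lost without wild type without Cd replicate 2 or 3, or with Cd replicate 2 or 3 (up to 0.0895). In the fit with the 3′ minus 5′ covariate, 6 of the 26 lipase genes rose and none fell, and 3 of the 16 lips genes rose.

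Of 62 genes that activate or oxidise fatty acids, 21 fell (33.9%) and 5 rose (8.06%), with a list median of −0.22. The peroxisomal acyl-CoA oxidases, which shorten very long chains and ascaroside side chains, fell at 4 of 5 genes. Of these acox-1.1 read 7.76, 7.78 and 7.71 without Cd and 6.40, 6.32 and 6.36 with Cd, and acox-1.2 7.09, 7.02 and 7.23 without Cd and 4.89, 5.09 and 4.92 with Cd. Both pairs of groups were separated by more than 1 log2 unit. The 5 rises became 2 in the fit of the 6 wild-type arrays, and 3 without wild type without Cd replicate 2 or 3, or without any 1 of the arrays with Cd. Desaturases and elongases of fatty acids had 5 falls and no rise among 15 genes, and of 5 yolk protein genes 3 fell. Beside fat-7, the elongase genes elo-2 and elo-1, needed for polyunsaturated fatty acids, fell by 0.85 (SE 0.16) and 0.55 (SE 0.06).

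Propionate, a product of odd-chain and branched-chain breakdown, is cleared either by a B12-dependent route or by a shunt, and 6 of 13 genes of these routes fell (46.2%), 7 did not pass and none rose. The first enzyme of the shunt, encoded by acdh-1, read 12.9, 12.94 and 12.78 without Cd and 11.29, 10.85 and 10.96 with Cd (difference −1.84, SE 0.13, limma adjusted p = 2.26e-05). The shunt gene ech-6 fell by 0.94 (SE 0.09, limma adjusted p = 0.000226) and mmaa-1, of the B12-dependent route, by 0.84 (SE 0.14, limma adjusted p = 0.00408). Members of both routes were among those that fell.

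In the methionine cycle, which supplies methyl groups, and in transsulfuration, which turns homocysteine into cysteine, 7 of 14 genes fell, 6 did not pass and 1 rose. The methionine synthase gene metr-1 read 9.71, 9.84 and 9.95 without Cd and 8.35, 8.07 and 8.36 with Cd, and mtrr-1, whose product reactivates that enzyme, 9.83, 9.75 and 9.79 without Cd and 7.69, 7.38 and 7.67 with it. The cystathionine gamma-lyase gene cth-1, at the step that releases cysteine, read 9.48, 9.54 and 9.61 without Cd and 6.13, 6.25 and 5.70 with Cd. All 3 genes lay above 9 on every array without Cd. The nuclear hormone receptor gene nhr-114, known to act in the response of the methionine cycle to low B12, fell by 2.36 (SE 0.35, limma adjusted p = 0.00194), from 5.92, 6.56 and 7.15 to 4.32, 3.68 and 4.55. It had the largest difference among 259 nuclear receptor genes, of which 15 rose (5.79%) and 13 fell (5.02%), shares close to those of all genes. The 15 rises became 7 to 9 without wild type without Cd replicate 2 or 3, or with Cd replicate 1 or 3. They became 9 with the floor, and both the covariate fit and that of the 6 wild-type arrays gave 9 rises and 8 falls.

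Of 20 glycolysis and gluconeogenesis genes 6 rose (30.0%) and 1 fell, with differences from −0.69 to 0.57, and 3 rose with the covariate. The hexokinase gene hxk-1, for the first step of sugar use, rose by 0.50 on its brighter probe set and by 1.08 on the other. For gpd-3, a glyceraldehyde-3-phosphate dehydrogenase gene, the difference was 0.53 (SE 0.09) on one probe set and 0.28 on another, which did not pass (limma adjusted p = 0.279), and for the phosphoglycerate mutase gene ipgm-1 it was −0.69 (SE 0.09). The glyoxylate cycle gene icl-1, which lets fat carbon enter sugar synthesis, read 10.61, 10.34 and 10.23 without Cd and 11.59, 11.92 and 11.47 with Cd. Of 16 genes for trehalose, glycerol and arginine kinases 5 fell (31.2%), or 2 with the covariate, and 3 rose. The arginine kinase gene argk-1, of an enzyme that stores phosphate bond energy, read 8.81, 9.25 and 9.1 without Cd and 4.64, 4.14 and 4.95 with Cd, the next largest fall after nep-22. The trehalose synthase gene tps-2 rose by 1.04 (SE 0.12, limma adjusted p = 0.000633). No ribosomal protein gene of 75 and no V-ATPase gene of 19 passed, and their medians were −0.02 and 0.11.

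Digestive and defence genes of the gut changed in both directions. Among 76 lysosomal and gut protease genes 15 fell (19.7%) and 9 rose (11.8%). After nep-22, the neprilysin gene nep-17 fell by 2.10 (SE 0.13), while the aspartic protease gene asp-14 read 9.30, 9.46 and 9.52 without Cd and 10.87, 10.9 and 11.13 with Cd. Of 25 neprilysin genes nep-22 and nep-17 fell and 1 rose. The peptide transporter gene pept-1, which takes up digested peptides, fell by 2.34 (SE 0.13, limma adjusted p = 4.92e-06), from 9.82, 9.99 and 10.08 to 7.55, 7.45 and 7.86.

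Of 34 genes for lysozymes and saposin-like proteins, which attack bacterial walls and membranes, 10 rose (29.4%), or 6 with the covariate, and 4 fell (11.8%). The lysozyme gene lys-7 read 9.64, 9.66 and 9.71 without Cd and 11.27, 11.26 and 11.5 with Cd, and ilys-3, an invertebrate-type lysozyme gene, rose by 2.06 (SE 0.24). In the other direction ilys-5, of the same type, read 13.06, 12.98 and 12.93 without Cd and 11.84, 11.83 and 11.84 with Cd, a fall of 1.15 that its other 2 probe sets shared (−1.15 and −1.22). These 2 invertebrate-type lysozyme genes moved oppositely. Of 220 C-type lectin genes, which encode sugar-binding proteins, 22 rose and 12 fell (5.45%), with clec-17, clec-12 and clec-82 at 2.67, 2.49 and 2.39. The share that rose exceeded the 6.50% of all genes, and the share that fell lay below their 6.22%. Of 98 further genes of infection response 13 rose (13.3%) and 6 fell (6.12%), the latter share close to that of all genes. The 13 rises became 8 with the covariate or the floor. The 6 falls became 10 without wild type without Cd replicate 1 or with the covariate, and 12 with array weights. The microsporidia-responsive gene pals-6 rose by 2.32 (SE 0.14), while irg-8 and fip-5 fell by 2.35 (SE 0.13) and 1.12 (SE 0.09).

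The small heat shock gene sip-1 read 8.0, 7.14 and 7.15 without Cd and 9.81, 10.19 and 9.97 with Cd, and hsp-12.2 rose by 0.76 (SE 0.12), 2 of the 3 rises among 17 small heat shock and HSP70 genes. In the same list hsp-12.3 and hsp-12.1 fell by 1.11 and 0.48. Neither passed in the fit of the 6 wild-type arrays (limma adjusted p = 0.0597 and 0.0735) or with the floor, and 1 of the 2 passed with the covariate, without wild type without Cd replicate 2 or 3, or without its replicate 3 with Cd. Of 24 autophagy genes 4 rose, or 2 without wild type with Cd replicate 1, and none fell. The gene lgg-1, which encodes the ubiquitin-like protein of the autophagosome membrane, read 10.46, 10.53 and 10.44 without Cd and 11.05, 11.28 and 11.2 with Cd (difference 0.70, SE 0.11, limma adjusted p = 0.00285). Of 20 genes for ER chaperones and unfolded protein sensors none rose and 3 fell, by 0.30 to 0.37. Only 1 fell with the covariate, without wild type without Cd replicate 2, or without wild type with Cd replicate 2 or 3. Of 33 proteasome subunit genes none rose and 4 fell (12.1%), by 0.27 to 0.60. These became 1 without wild type without Cd replicate 2 or with Cd replicate 1 or 3, and 2 without wild type with Cd replicate 2, without MT KO with Cd replicate 2, in the fit of the 6 wild-type arrays or with the floor.

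**Figure D4:**
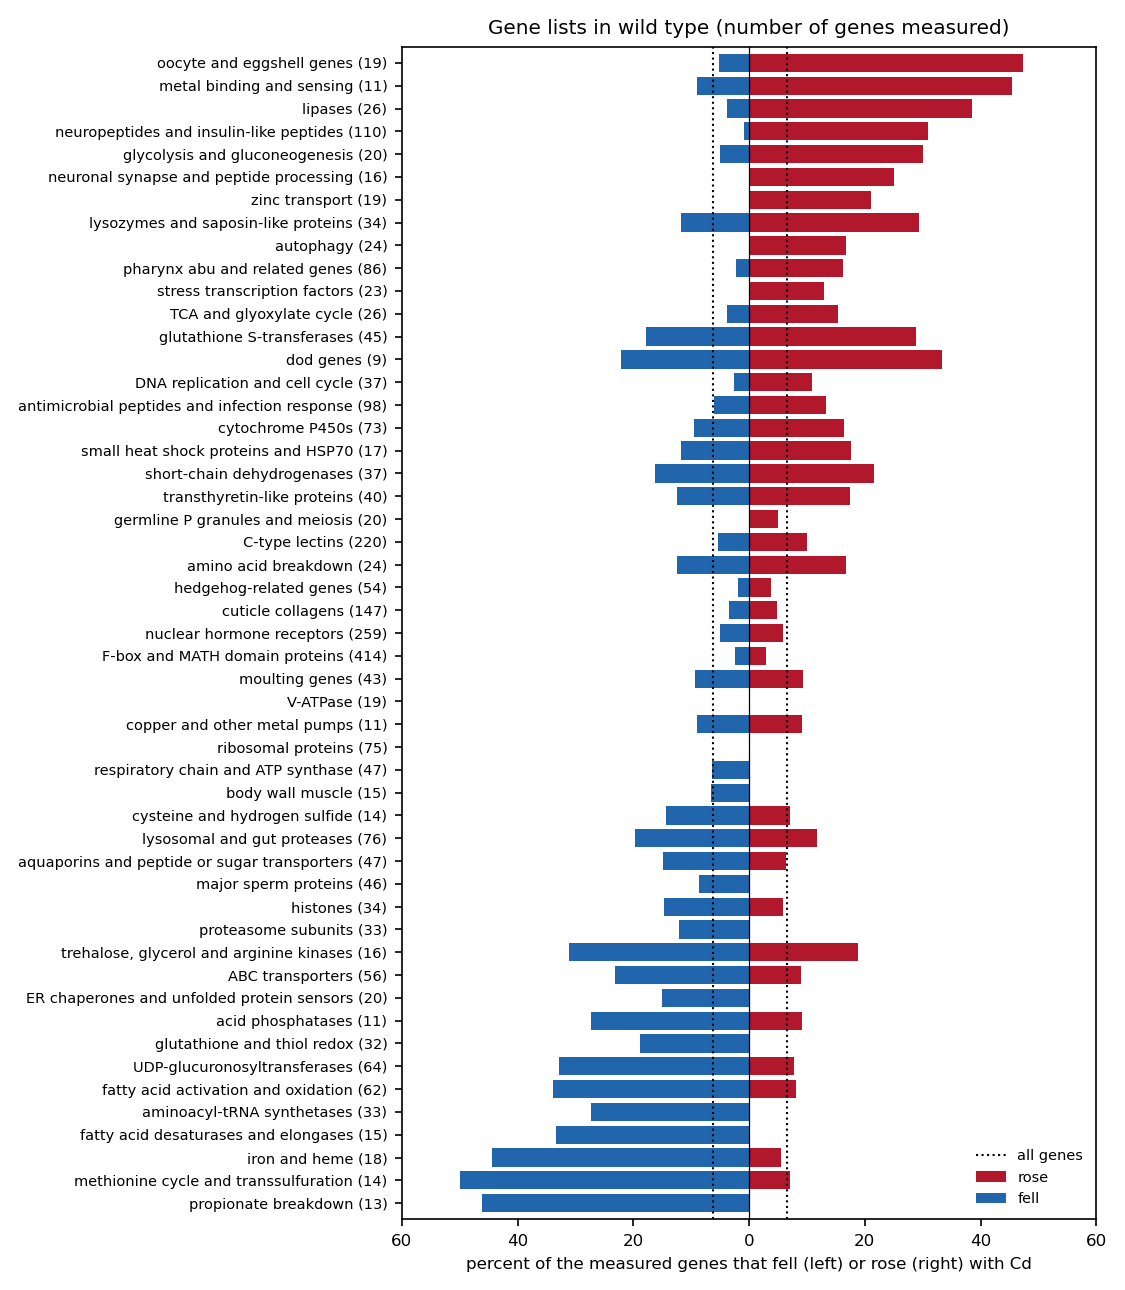
For each list of at least 9 measured genes (number in brackets), the bar to the right is the percent of genes that rose with Cd in wild type and the bar to the left the percent that fell; dotted lines mark the shares over all 17118 genes, 6.50% and 6.22%. Oocyte genes, metal binding genes, lipases and neuropeptides extend to the right, and propionate, methionine and iron genes to the left.

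Of 110 genes for neuropeptides and insulin-like peptides 34 rose (30.9%) and 1 fell (0.909%), and 75 did not pass, with a list median of 0.30 and a positive difference at 90. The 25 FMRFamide-like peptide genes had 13 rises, 23 positive differences and a median of 0.51. Of 58 other neuropeptide-like protein genes 16 rose and 1 fell, and of 24 insulin-like peptide genes 3 rose (5 without wild type with Cd replicate 1), with ins-35 far above the rest. The gene nlp-51 read 6.69, 6.44 and 6.65 without Cd and 7.69, 7.9 and 7.44 with Cd, and nlp-28, which is also an antimicrobial peptide gene of the skin, 6.98, 7.28 and 7.44 without Cd and 8.27, 8.35 and 8.40 with Cd. Of 16 genes for neuronal synapse and peptide processing 4 rose, none fell and 12 did not pass, with a list median of 0.12. The 4 rises became 2 with the covariate or in the fit of the 6 wild-type arrays. With the replicate number as a block on those 6 arrays 1 rose. Of genes that process such peptides, the carboxypeptidase gene egl-21 rose by 0.81 (SE 0.09, limma adjusted p = 0.000413) and the convertase gene egl-3 by 0.57 (SE 0.09, limma adjusted p = 0.00276). For egl-3 significance was lost in the fit of the 6 wild-type arrays with the replicate number as a block (limma adjusted p = 0.0541). The count of 34 fell to 19 without wild type without Cd replicate 2 or with Cd replicate 2, to 20 without wild type with Cd replicate 3 and to 13 with the 3′ minus 5′ covariate. Without these 3 arrays in the same order, the rises numbered 7, 7 and 6 among FMRFamide-like peptide genes and 8, 8 and 10 among other neuropeptide-like protein genes. With the covariate they numbered 3 and 7, and in the fit of the 6 wild-type arrays 8 and 10.

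The summed level of 6 neuron markers ranged over 2342 to 2396 without Cd and 3017 to 3572 with Cd (linear scale). Of the 6, 3 rose, with a median difference of 0.26 over all 6. The 3 were snb-1, on the brighter of its probe sets, and the peptide-processing genes egl-3 and egl-21, while rab-3, unc-119 and ric-4 did not pass. The other snb-1 probe set differed by 0.11 and did not pass (limma adjusted p = 0.81). Only 1 neuron marker rose in the fit of the 6 wild-type arrays with the replicate number as a block. Of 5 pharynx markers 4 rose, with sums of 1785 to 1877 without Cd and 2408 to 2701 with Cd, and of 7 oocyte and embryo markers 5 rose, with sums of 239 to 280 and 402 to 478 (3 rose without wild type without Cd replicate 2 or 3, or with Cd replicate 1). With the covariate 1 pharynx marker and 2 oocyte and embryo markers rose. The sums of the groups did not overlap in these 3 tissues or, in the other direction, in the intestine. Among single probe sets the groups did not overlap at 5626 of 22548. Of 5 intestine markers, the gut esterase gene ges-1 rose by 0.83 (SE 0.08) and pept-1 and the gut actin gene act-5 fell, with sums of 4922 to 6088 without Cd and 4170 to 4387 with Cd, while none of 4 body wall muscle, 4 hypodermis or 4 sperm markers changed. Of 19 oocyte and eggshell genes 9 rose (47.4%) and 1 fell (5.26%), with a median of 0.56; the rises numbered 3 without wild type without Cd replicate 2, 4 without its replicate 3, 4 without wild type with Cd replicate 1, 4 with the covariate, and 5 in the fit of the 6 wild-type arrays or with the floor. Of 46 genes for major sperm proteins and their relatives, 45 had a difference of 0 or below, with a median of −0.47. Of the 46, 4 passed, all as falls (msrp-5, msrp-6, ssp-35 and msp-50, from −1.35 to −0.73). These falls numbered 2 without wild type without Cd replicate 1 or 2, 1 without wild type with Cd replicate 2 or 3, 9 without MT KO without Cd replicate 3 and 0 with the covariate. Between 7 and 13 fell with median centring, with an intensity trend or among probe sets above the median. The response of these genes differed between strains at 39 of 46, with a median of −2.86 in MT KO. The msp genes among them are near-identical copies whose probe sets may share signal. The part of these markers in the other results was not tested.

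By chromosome, the share of genes that rose ranged from 5.63% on chromosome I to 7.09% on chromosome IV. The share that fell was 8.63% on the X chromosome, 203 of 2351 genes, and between 5.40% and 6.11% on the 5 autosomes. Genes that changed in 1 direction side by side, with no other measured gene between them, formed 17 runs of at least 3, of which 9 rose and 8 fell, and the longest had 4 genes. In only 2 of the 8 runs with the largest median difference did every gene keep its call under every alternative, and these are the ones named. On chromosome V, exh-1, C36C5.12 and C36C5.14 fell by 1.15, 1.33 and 2.29. On chromosome III, R02F2.8, R02F2.1, D1044.7 and the glutamine- and asparagine-rich protein gene pqn-25 rose by 0.84, 1.35, 1.26 and 1.61.

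In MT KO larvae 5067 probe sets changed with Cd (22.5%). Of the 343 wild-type rises of at least 2-fold 295 were called in the same direction there, and of the 282 falls 231. The responses of the strains were tested against each other, and 1229 of 22548 probe sets differed (limma adjusted p under 0.05, 5.45%). Among the rises of at least 2-fold 42 differed, 34 of them smaller or opposite in MT KO and 8 larger, and among the falls 44 differed, 35 smaller or opposite and 9 larger. These probe sets were chosen by a large wild-type difference, which this test also subtracts. The choice itself favours smaller responses in MT KO, so the split does not show a weaker response of that strain. The zinc loader gene cdf-2 rose in wild type, and its response was 1.79 lower in MT KO, where its difference was −0.77 (interaction SE 0.23, limma adjusted p = 0.00268). The peroxisomal oxidase gene acox-1.2, which fell by 2.15 in wild type, differed by −0.28 in MT KO (interaction 1.87, SE 0.27, limma adjusted p = 0.00468). In contrast ins-35, ugt-17, pept-1 and lipl-2, chosen after their values were seen as examples of like responses, had differences of 3.49, −2.63, −2.35 and 2.18 in MT KO, with no call for the interaction (limma adjusted p from 0.944 to 0.998).

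**Figure D5:**
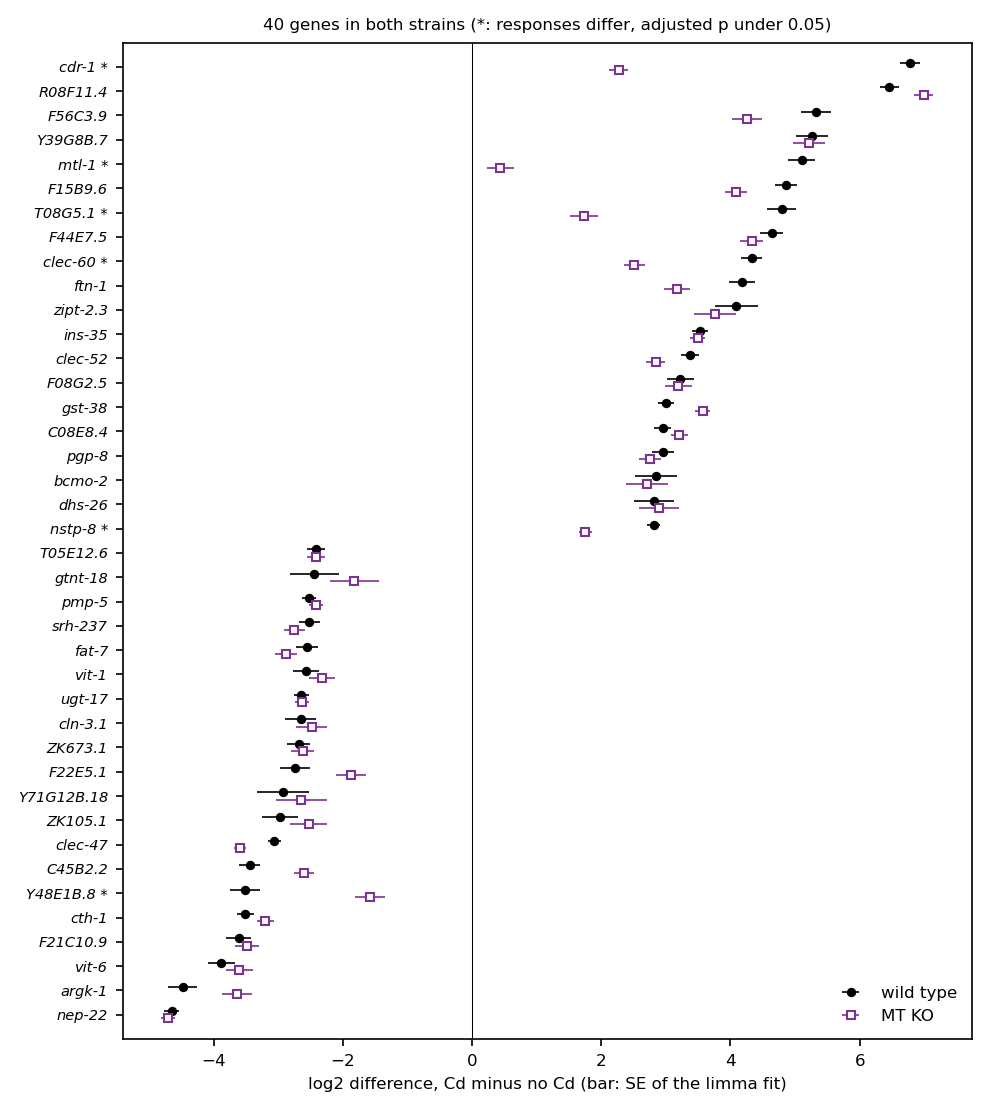
Log2 difference, Cd minus no Cd, of the 20 largest rises and 20 largest falls of wild type, in wild type (filled circles) and MT KO (open squares), with bars for the SE of the limma fit (n = 3 arrays per group). An asterisk marks the 6 genes whose responses differed between strains by limma's test of the difference.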

How the data were processed

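Values deposited by the authors were log2 signals, 1 per probe set and array, from GCRMA per the submitters' processing notes, whose version the sources used here do not give. The method corrects background by probe sequence, brings all arrays to one distribution and summarises each probe set, so differences are relative to the bulk of transcripts. RNA, 200 ng per sample, was amplified and biotin-labelled per the labels. Values, from 1.56 to 14.5, were used as deposited, and 77 of 22625 features, the manufacturer's controls, were left out. No detection calls were used, and the number of arrays limits the precision.

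Group means of all 12 arrays were fitted with limma 3.58.1 (R 4.3.3; 8 residual and 1.38 prior degrees of freedom), with two-sided tests and Benjamini-Hochberg adjustment over 22548 probe sets. A value with ± is a mean and SD over 3 arrays. Symbols came from the platform annotation: 20766 probe sets had 1, 887 several and 895 none, and only the first are named. Of them 20701 matched the RefSeq table of assembly WBcel235, used for names, chromosomes and neighbours; no build is named in the files, so no coordinates are given. For lists, the probe set with the highest mean stood for a gene. The members and the 52 lists were chosen with earlier results of these data known. Named genes were the 20 largest rises and falls among called probe sets with 1 symbol, no overlap between groups and a higher mean above the median, with the genes for metallothioneins, phytochelatin synthase, cdr-1, hmt-1 and hizr-1, up to 6 called members per list, tissue markers and 8 runs of neighbours. From the genes this rule gave for lists and runs, the text mostly names those whose calls held under the alternatives, a choice made after the values were seen, so the named examples are firmer than calls in general (162 of 294 held throughout). Alternatives changed the arrays, normalization, variance model, array weights, filter, floor, threshold and covariate, or added a replicate block. In wild type, deviations from the group mean had r = 0.167, −0.105 and 0.231 between same-numbered arrays with and without Cd. Differently numbered ones had r from −0.243 to 0.061. In MT KO the same-numbered values were 0.211, 0.109 and 0.307, and the others ran from −0.3 to 0.145. Whether the numbers mark pairs was not settled by these values, and the main fit took no pairs. Fits with the replicate number as a block are given below. The procedure was tested on simulated data.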

Additional observations from a re-analysis of the deposited data

Results flagged for a closer look

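The Cd response differed between wild type and MT KO, by limma's test of the difference itself (MT KO minus wild type, adjusted p under 0.05), in 19 of the genes described above. These 19 were partly picked for holding up: the rule for named genes gave 50 probe sets that changed in wild type and differed between strains, 36 smaller or opposite in MT KO and 14 larger, and only 26 of the 50 kept the difference under every alternative. Counts over the 19 therefore do not describe the whole. All 50 were also chosen by their change in wild type, which favours smaller responses in MT KO. The largest differences were those of mtl-1 (−4.66, SE 0.30), which the MT KO strain is labelled as lacking, and of cdr-1 (−4.51, SE 0.21), which rose by 2.27 in MT KO from a mean of 7.83 without Cd. The other rises that were smaller were T08G5.1 (−3.06), the C-type lectin gene clec-60 (−1.82), the lipase gene lipl-4 (−1.32) and nstp-8 (−1.06), and cdf-2 (−1.79) went the opposite way. Falls that were smaller were Y48E1B.8 (1.93), the peroxisomal oxidase genes acox-1.2 (1.87) and acox-1.1 (0.80), ugt-31 (1.28), fip-5 (0.69) and ilys-5 (0.39). Responses larger in MT KO were those of the convertase gene egl-3 (0.67), of hsp-12.3 (−1.36) and of the sperm genes msp-50 (−2.93), ssp-35 (−2.66), msrp-6 (−2.50) and msrp-5 (−2.31). Of the 19, 15 kept the difference in every alternative fit at an adjusted p under 0.05. Of these 15, egl-3 and fip-5 would not pass the stricter 0.01 in the main fit (limma adjusted p = 0.014 and 0.0122). For ilys-5 it was lost when only probe sets above the median were tested (limma adjusted p = 0.0751), for msrp-5 and msrp-6 with values floored at the median (0.134 and 0.187), and for hsp-12.3 without any of 4 arrays, wild type with Cd replicate 2 or 3 and MT KO replicate 2 without or with Cd (up to 0.0623).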

How the results depend on the processing

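The 2693 changes became 1770 with the 3′ minus 5′ covariate, 1583 in a fit of the 6 wild-type arrays with the replicate number as a block and 1384 at an adjusted p under 0.01. In the same order the rises numbered 848, 841 and 749, and the falls 742 with that block and 635 at the stricter threshold. That block also took, among other list counts, the neuropeptide rises from 34 to 18, the lipid oxidation rises from 5 to 2 and the UDP-glucuronosyltransferase falls from 21 to 13. With the replicate block on all 12 arrays the count was 2716. The majority turned from rises to falls with quantile normalization (1264 higher, 1302 lower) and with the covariate (848 and 922). Leaving out 1 array gave 1952 to 2678 changes, 1040 to 1452 higher and 877 to 1248 lower. The 1229 differences between strains became 1869 with array weights, 662 with values floored at the median and 499 at an adjusted p under 0.01, and 823 to 1384 without 1 array. Of the 40 genes with the largest changes 38 were called in every fit at an adjusted p under 0.05. Of 294 named probe sets called in wild type 162 were, and none changed direction. The causes were not tested. With 3 arrays per group, and levels below the median of all values open to background, small changes of dim genes are the least certain.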
